A study of Oryctolagus cuniculus with 15 samples.

Results

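Elastic fibre and lysyl oxidase expression was examined in rabbit corneal keratocytes through 8 genes, found by their symbols among the 23428 genes of the count table. They were elastin (ELN), fibrillin 1 (FBN1), fibulin 5 (FBLN5) and the lysyl oxidases LOX, LOXL1, LOXL2, LOXL3 and LOXL4. The rule itself used no measured value, but the genes were chosen with earlier results of these data known. All 8 passed the low-count filter in every comparison. The cells were first-passage keratocytes from New Zealand white rabbit eyes, maintained in serum-free medium, cultured for 6 days under the tested condition and profiled by bulk RNA-seq in 5 conditions with 3 libraries each. In 2DC the cells grew on a collagen-coated dish and were incubated with digestion medium before lysis. In 2DC_L separate dishes of the same kind were lysed directly. In 2DF the cells grew on top of a fibrillar type I collagen matrix, and in 3DF they were embedded within it at 100000 cells per matrix. 3DF_50 was the embedded culture at 50000 cells per matrix. The matrices of 2DF, 3DF and 3DF_50 were lifted from the dish and also incubated with digestion medium. Their cells were then pelleted and rinsed before lysis, so 2DC_L was the only condition without digestion. The cells of a library came from dishes or matrices pooled within 1 experiment, so a library stands for a pooled culture. The number of rabbits behind a library is not given.

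Elastic fibres consist of a core of cross-linked elastin laid down on a scaffold of microfibrils, whose backbone is fibrillin. Fibulin 5 binds tropoelastin, the soluble elastin precursor, and helps to bring it to the microfibril together with LOXL1. The lysyl oxidases are secreted copper enzymes that oxidise lysine side chains, the step that starts covalent cross-linking of collagens and elastin. In the corneal stroma collagen fibrils dominate, and microfibrils and elastic fibres form a sparse network beside them.

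The libraries held between 14626982 and 31804255 counted reads. Expression levels are given as FPKM, the fragments per kilobase of transcript, scaled to library size, in the deposited table, which allows levels of different genes to be compared. The keratocyte markers KERA, LUM, DCN, ALDH1A1 and TKT together reached 16782 to 31197 FPKM in the 15 libraries, as the cell type label would have it. Markers of other cells were low, with a summed 0.694 to 2.55 FPKM for smooth muscle, 5.12 to 6.42 FPKM for vascular endothelium and 3.00 to 7.80 FPKM for leukocytes in 2DF. Epithelial markers summed to 7.24 to 12.4 FPKM in 3DF, 0.767 to 5.72 in 2DF and 0.0373 to 5.73 in 3DF_50. In 2DC they summed to 0.123 to 1.05 FPKM and in 2DC_L to 0.226 to 0.939 FPKM. KRT12, KRT3 and KRT5 (3 of the 5 listed genes in the table) were called higher in 3DF against 2DC. TP63 had a lower mean in 3DF (0.0877 against 0.162 FPKM) and was not called, and EPCAM was at most 0.169 FPKM in any library. KRT12 was listed at 0 in every 2DC and 2DC_L library. The part of epithelial markers in the differences below was not tested. In bulk RNA, fewer cells of a type and less RNA per cell cannot be told apart.

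A gene was called a differentially expressed gene (DEG) at an adjusted p of 0.05 or less in edgeR's quasi-likelihood test (Benjamini-Hochberg over all genes tested), together with a log2 fold change of 1 or more in size. Fold changes below are on the log2 scale, with the standard error (SE) of the fit, and compare 3 libraries with 3. The cross-linking enzymes LOX, LOXL2 and LOXL4 were lower in the embedded cultures than in either of the other geometries. ELN and LOXL1 instead stood highest in 2DF, the culture on top of the matrix. FBLN5 was lower in 3DF than in 2DF, and FBN1 and LOXL3 were DEGs in no comparison of 2DC, 2DF and 3DF.

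**Figure D1:**
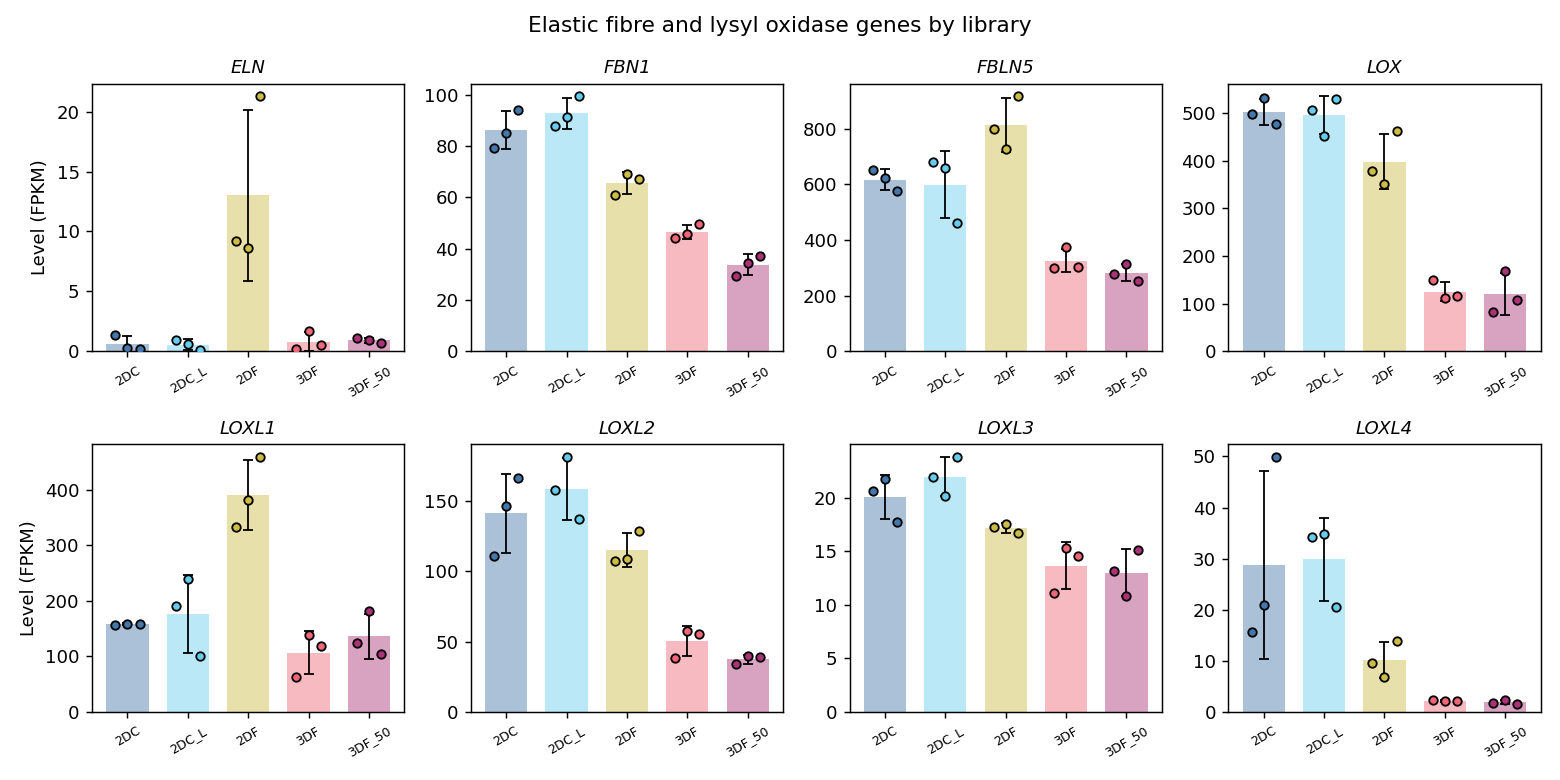
Expression level in FPKM (linear axis) of the 8 genes in each of the 15 libraries, by condition, with points for libraries and bars for the mean of 3. The 2DF libraries of ELN lie between 8.59 and 21.3 FPKM, above all other libraries, and the LOXL4 libraries of 3DF and 3DF_50 lie between 1.62 and 2.35 FPKM, below all others.

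ELN, the elastin gene, was measured at 1.34, 0.261 and 0.148 FPKM in the 3 libraries of 2DC and at 9.22, 8.59 and 21.3 FPKM in those of 2DF. In 3DF it was at 0.163, 1.70 and 0.527 FPKM. The 2DF libraries overlapped with none of the others, while 2DC and 3DF overlapped with each other. Between the conditions the ELN level was 13.0 ± 7.16 FPKM in 2DF, 0.583 ± 0.657 in 2DC, 0.548 ± 0.434 in 2DC_L, 0.798 ± 0.804 in 3DF and 0.903 ± 0.225 in 3DF_50 (mean ± SD, n = 3). No pair of the other 4 conditions was a DEG for ELN with all libraries and no block. Against 2DC, ELN in 3DF_50 reached 2.11 on the log2 scale (adjusted p = 0.0157 in edgeR) without 2DC replicate 1, whose 48 reads were the most of its condition.

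ELN rose by a log2 fold change of 4.37 (adjusted p = 0.00305 in edgeR, SE 0.64) in 2DF against 2DC and fell by 4.03 on the log2 scale (adjusted p = 0.00475 in edgeR, SE 0.62) in 3DF against 2DF. For 3DF against 2DC the ELN difference was 0.38 (adjusted p = 0.814 in edgeR, SE 0.91), and its sign changed to -0.05 without 2DC replicate 3 and to -0.86 without 3DF replicate 2. With the library-name prefix as a block, described below, the ELN difference was 2.37 (edgeR adjusted p = 0.0634) for 3DF against 2DC and 2.59 (edgeR adjusted p = 0.0323) against 2DC_L, the latter a DEG. These low levels rest on few reads. The ELN counts were 48, 7 and 4 in 2DC, 5, 47 and 13 in 3DF, and 197, 185 and 452 in 2DF.

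Markers of other cells moved in both directions beside the ELN rise in 2DF. Of the 4 endothelial markers, CDH5 was at 5.47 ± 0.648 FPKM in 2DF and 2.23 ± 0.548 in 2DC (n = 3) and was called higher, TIE1 was at 0.0723 ± 0.0377 against 0.260 ± 0.110 FPKM and was called lower only against 2DC_L, VWF was at 0.124 ± 0.0440 against 0.0684 ± 0.0230 FPKM, and PECAM1 was at most 0.0421 FPKM in any library. Of the 4 smooth muscle markers in the table, ACTA2 was called lower at 0.358 ± 0.171 FPKM in 2DF against 1.32 ± 0.517 FPKM in 2DC, while the means of MYH11 (0.642 and 0.355 FPKM), DES (0.296 and 0.198 FPKM) and ACTG2 (0.0977 and 0.0195 FPKM) were higher in 2DF, each with 1 2DF library below the 2DC mean. Among the 3 leukocyte markers, CD68 was at 5.45 ± 2.35 FPKM in 2DF against 2.98 ± 1.12 FPKM for 2DC and 2.12 ± 0.335 FPKM for 3DF. It was called lower in 3DF against 2DF and higher in 2DF against 2DC_L, while PTPRC was listed at 0 in all 2DF libraries. The part of these cell types in the ELN level was not tested.

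In the oryCun2 build the ELN gene model lies on the unplaced scaffold Un0067 from 654638 to 665917 on the minus strand, with a summed exon length of 1220 bases. The next model upstream on the same strand, LOC103344988, runs from 667998 to 681398 and has no gene name in the deposited annotation. The gap between them is 2080 bases, with 0 annotated genes inside it. In the RefSeq annotation of the mOryCun1.1 assembly LOC103344988 is not listed.

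LOC103344988 was counted at 21, 7 and 4 reads in 2DC, 151, 178 and 326 reads in 2DF, and 3, 16 and 7 reads in 3DF. As for ELN, the 2DF libraries were apart from all others. The edgeR log2 fold change of LOC103344988 was 4.86 (adjusted p = 0.00048, SE 0.47) in 2DF against 2DC and -4.99 (adjusted p = 0.000683, SE 0.50) in 3DF against 2DF. Across the 15 libraries, in each of which both share depth and culture, log2(FPKM + 1) of LOC103344988 and ELN had a Pearson r of 0.979. With the reads of both models summed, a count chosen after seeing the data, the ELN log2 fold changes were 4.57 (edgeR adjusted p = 0.00139) in 2DF against 2DC, -4.38 (adjusted p = 0.00239) in 3DF against 2DF and 0.24 (adjusted p = 0.871) in 3DF against 2DC. Whether both models belong to 1 transcript was not tested.

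**Figure D2:**
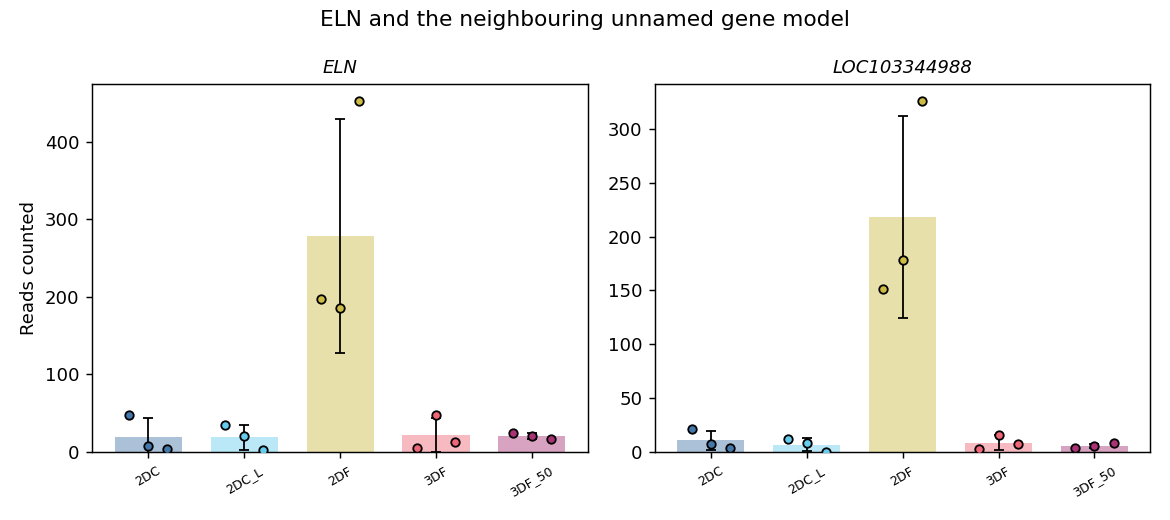
Read counts of ELN and of the neighbouring gene model LOC103344988 in each of the 15 libraries, by condition. The 2DF libraries hold 185 to 452 reads of ELN and 151 to 326 reads of LOC103344988, above every other library for both models.

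FBN1, the gene of the main microfibril protein, was at 79.4, 85.3 and 94.0 FPKM in 2DC, at 60.8, 69.0 and 67.1 FPKM in 2DF and at 44.0, 45.7 and 49.5 FPKM in 3DF. In 3DF_50 it was at 29.3, 34.4 and 37.3 FPKM, and in 2DC_L at 87.8, 91.3 and 99.5 FPKM. The libraries of 2DC, 2DF, 3DF and 3DF_50 followed each other in that order without overlap. The FBN1 gene lies on chromosome 17 from 23801101 to 24060289 on the plus strand.

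The FBN1 log2 fold change was -0.90 (adjusted p = 0.0022 in edgeR, SE 0.12) in 3DF against 2DC and -0.39 (adjusted p = 0.0384 in edgeR, SE 0.10) in 2DF against 2DC, both within the fold limit of a DEG. For 3DF against 2DF it was -0.50 (adjusted p = 0.0602 in edgeR, SE 0.13). Under the main settings FBN1 was a DEG only where the low-density culture was compared with the coated dishes, at -1.35 (adjusted p = 5.0e-05 in edgeR, SE 0.12) against 2DC and -1.46 (adjusted p = 1.3e-05 in edgeR, SE 0.12) against 2DC_L. In 3DF against 2DC_L it was -0.998 (adjusted p = 0.000574 in edgeR, SE 0.13), at the edge of the fold limit, and it was a DEG there with other low-count filters (-1.005 and -1.007), with the prefix block (-1.18), and without 2DC_L replicate 1 (-1.04), 2DC_L replicate 2 (-1.01) or 3DF replicate 3 (-1.05).

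FBLN5, the fibulin that links elastin to microfibrils, was among the more highly expressed of the 8 genes. It was at 653, 624 and 575 FPKM in 2DC, at 799.6, 726 and 917 FPKM in 2DF and at 300.4, 375 and 302 FPKM in 3DF. The 3DF libraries lay below all 2DC and 2DF libraries, and the 2DF libraries lay above those of 2DC. In 3DF_50 FBLN5 was at 282 ± 31.1 FPKM and in 2DC_L at 599 ± 122 FPKM (n = 3), the latter with 1 lower library at 459 FPKM. The gene lies on chromosome 20 from 13959475 to 14039627 on the plus strand.

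FBLN5 fell by 1.32 on the log2 scale (adjusted p = 0.00213 in edgeR, SE 0.17) in 3DF against 2DF. Its change in 3DF against 2DC was -0.93 (adjusted p = 0.0034 in edgeR, SE 0.14), just short of the fold limit, and became -1.05 without 3DF replicate 2. The 2DF level was 0.41 (adjusted p = 0.0597 in edgeR, SE 0.12) above 2DC on the log2 scale, which did not pass. With 50000 cells FBLN5 was a DEG against 2DC at -1.13 (edgeR adjusted p = 0.000105) and against 2DC_L at -1.09 (edgeR adjusted p = 0.000586). Scaling by total count alone brought these to -0.77 and -0.73, and leaving out 2DC_L replicate 1 brought the second to -0.99.

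LOX, the founding lysyl oxidase, was the most highly expressed enzyme of its family on the coated dish. It was at 499, 532 and 477 FPKM in 2DC, at 379, 352 and 463 FPKM in 2DF and at 149, 111 and 115 FPKM in 3DF. The 3DF libraries lay far below the others, and those of 2DF were all below the lowest 2DC library. In 3DF_50 LOX was at 81.8, 169 and 108 FPKM, a range that contained all 3DF libraries. In 2DC_L it was at 495 ± 39.8 FPKM against 503 ± 27.7 FPKM in 2DC (n = 3).

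LOX changed by -2.02 on the log2 scale (adjusted p = 0.000165 in edgeR, SE 0.15) in 3DF against 2DC and by -1.66 (adjusted p = 0.000998 in edgeR, SE 0.18) in 3DF against 2DF. For 2DF against 2DC the LOX difference was -0.33 (adjusted p = 0.128 in edgeR, SE 0.13). The gene lies on chromosome 3 from 6327801 to 6342402 on the minus strand.

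LOXL1, the family member tied to elastin deposition, followed another order. It was at 156, 159 and 159 FPKM in 2DC, at 332, 380.5 and 458 FPKM in 2DF and at 62.8, 138 and 118 FPKM in 3DF. All 2DF libraries lay above every other library, and the 3DF libraries lay below those of 2DC, with replicate 1 the lowest. In 3DF_50 it was at 124, 181 and 103 FPKM, on both sides of the 2DC values. The 2DC_L libraries were spread most, at 189.9, 239 and 101 FPKM.

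LOXL1 rose by a log2 fold change of 1.31 (adjusted p = 0.000438 in edgeR, SE 0.12) in 2DF against 2DC and fell by 1.88 on the log2 scale (adjusted p = 0.00314 in edgeR, SE 0.27) in 3DF against 2DF. The 3DF level was -0.58 (adjusted p = 0.172 in edgeR, SE 0.25) from 2DC on the log2 scale and did not pass. Against the directly lysed dish, LOXL1 was 1.15 higher in 2DF (adjusted p = 0.0127 in edgeR, SE 0.26), and 0.87 higher without 2DC_L replicate 3, which ended the call. LOXL1 lies on the unplaced scaffold Un0413 from 1329 to 18085 on the plus strand.

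LOXL2, an enzyme known for cross-linking of type IV collagen, was at 111, 146 and 166 FPKM in 2DC, at 107, 109 and 129 FPKM in 2DF and at 37.99, 57.6 and 55.7 FPKM in 3DF. The 2DC and 2DF libraries overlapped, and the 3DF libraries lay below both. In 3DF_50 the LOXL2 level was 37.5 ± 3.19 FPKM and in 2DC_L it was at 158, 181 and 137 FPKM (mean ± SD for 3DF_50, n = 3). LOXL2 changed by -1.49 on the log2 scale (adjusted p = 0.00249 in edgeR, SE 0.21) in 3DF against 2DC and by -1.19 (adjusted p = 0.00391 in edgeR, SE 0.18) in 3DF against 2DF. For 2DF against 2DC it was -0.29 (adjusted p = 0.229 in edgeR, SE 0.15).

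The LOXL2 model lies on scaffold Un0239 from 273893 to 353212 on the minus strand. A second model described as LOXL2-like, LOC103347318, lies on scaffold Un1454 from 3851 to 13155. LOC103347318 fell by 1.34 on the log2 scale (adjusted p = 0.00166 in edgeR, SE 0.17) in 3DF against 2DC, and its log2(FPKM + 1) had a Pearson r of 0.972 with that of LOXL2 over the 15 libraries. Summing the reads of LOXL2 and LOC103347318, also chosen after seeing the data, gave LOXL2 log2 fold changes of -1.48, -0.30 and -1.17 for 3DF against 2DC, 2DF against 2DC and 3DF against 2DF. Which reads the aligner could place in either model was not tested.

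LOXL4 had the widest range of the lysyl oxidases. It was at 15.6, 20.9 and 49.9 FPKM in 2DC, at 9.66, 6.83 and 13.8 FPKM in 2DF and at 2.35, 2.07 and 2.09 FPKM in 3DF. The 3 conditions did not overlap, and 2DC replicate 3 stood well above the other 2DC libraries. In 3DF_50 it was at 1.64, 2.35 and 1.62 FPKM and in 2DC_L at 34.1, 34.8 and 20.6 FPKM. LOXL4 lies on chromosome 18 from 46347518 to 46367998 on the minus strand.

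LOXL4 changed by -3.74 on the log2 scale (adjusted p = 0.00083 in edgeR, SE 0.42) in 3DF against 2DC and by -2.21 (adjusted p = 0.000889 in edgeR, SE 0.24) in 3DF against 2DF. In 2DF against 2DC its change was -1.50 (adjusted p = 0.0427 in edgeR, SE 0.41). This last call ended without 2DC replicate 2, without 2DC replicate 3, where the value was -0.85, and without any 1 of the 2DF libraries, and DESeq2 gave -1.51 with an adjusted p of 0.0704. Against 2DC_L the LOXL4 level in 2DF differed by -1.56 (adjusted p = 0.00227 in edgeR, SE 0.26).

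LOXL3, the last of the enzymes, had a ratio of highest to lowest condition mean of 1.69, the smallest of the 8 genes. It was at 20.7, 21.8 and 17.7 FPKM in 2DC, at 17.2, 17.6 and 16.7 FPKM in 2DF and at 11.1, 15.3 and 14.6 FPKM in 3DF. The 3DF libraries lay below those of both 2D cultures, and 2DF lay below 2DC by a narrow margin. The LOXL3 difference was -0.56 (adjusted p = 0.0400 in edgeR, SE 0.15) in 3DF against 2DC, -0.32 (adjusted p = 0.228 in edgeR, SE 0.15) in 3DF against 2DF and -0.22 (adjusted p = 0.152 in edgeR, SE 0.09) in 2DF against 2DC. None of these reached the fold limit. LOXL3 lies on chromosome 2 from 111990273 to 112008448 on the plus strand.

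**Figure D3:**
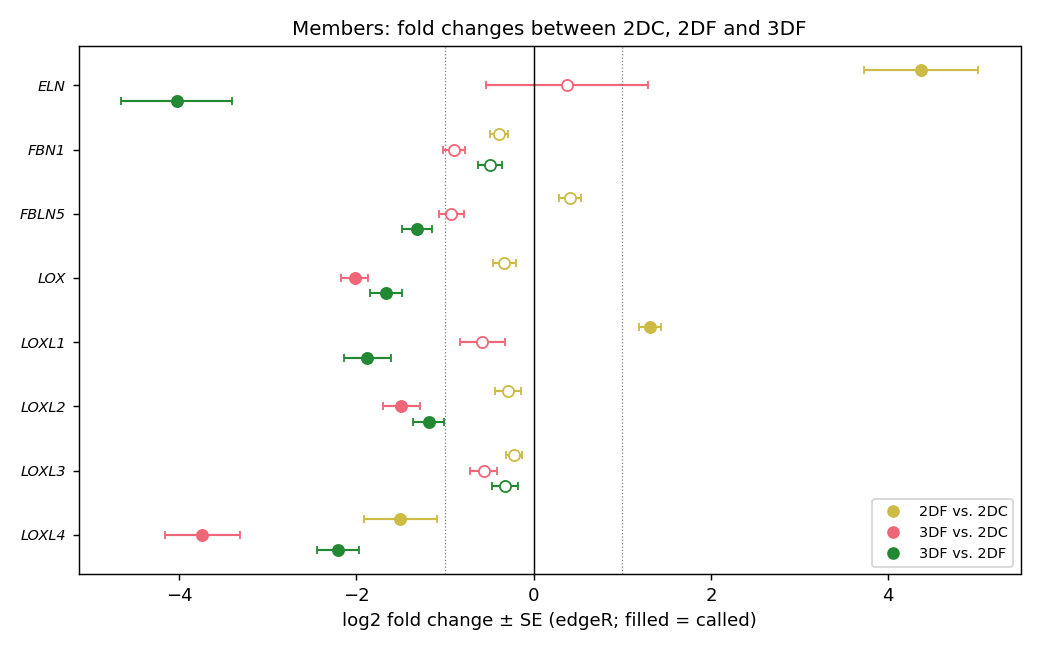
Log2 fold change of each of the 8 genes in 3DF against 2DC, 2DF against 2DC and 3DF against 2DF, with bars for the standard error of the edgeR fit on 3 libraries per condition. ELN and LOXL1 are above 1 in 2DF against 2DC (4.37 and 1.31), and LOX, LOXL2 and LOXL4 are below -1 in both comparisons of 3DF.

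Counted over the 8 genes, 3 were DEGs in 3DF against 2DC, all lower (LOX, LOXL2 and LOXL4), where 7.56% of all genes tested were called and 4.32% were called lower. In 2DF against 2DC there were 3 DEGs, with ELN and LOXL1 higher and LOXL4 lower, where 4.96% of all genes were called, 2.04% higher and 2.93% lower. In 3DF against 2DF 6 of the 8 were DEGs, all lower (ELN, FBLN5, LOX, LOXL1, LOXL2 and LOXL4), where 3.78% of all genes were called and 1.69% were called lower. The median log2 fold change of the 8 genes in these comparisons was -0.92, -0.25 and -1.49, and that of all genes tested was 0.012, 0.0045 and 0.011. The 3 comparisons share libraries, so each set of values stands for itself.

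The lysyl oxidases added up to 850.5 ± 41.9 FPKM in 2DC, 883 ± 62.3 in 2DC_L and 931 ± 130.4 in 2DF, but to 298 ± 31.1 in 3DF and 308 ± 82.1 in 3DF_50 (mean ± SD of the summed level, n = 3). The summed levels of the embedded cultures reached at most 402.7 FPKM and those of the 2D cultures were at least 802.5 FPKM. The make-up of this sum differed as well. LOX supplied 59.2% ± 3.83 of the summed FPKM in 2DC, 42.8% ± 2.10 in 2DF, 42.9% ± 12.01 in 3DF and 38.1% ± 5.26 in 3DF_50. LOXL1 supplied 18.6% ± 0.750 in 2DC, 41.9% ± 2.37 in 2DF, 35.0% ± 9.86 in 3DF and 44.2% ± 5.13 in 3DF_50. These sums and shares are given as a description. With 3 libraries against 3 an exact permutation test on them cannot give a p below 0.1.

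The ratio of the LOXL1 level to the LOX level was 0.313, 0.299 and 0.332 in 2DC and 0.877, 1.08 and 0.991 in 2DF. In 3DF it was 0.421, 1.24 and 1.02, and in 3DF_50 1.52, 1.08 and 0.958. All libraries on or in fibrillar collagen thus had a higher ratio than those of 2DC, with 3DF replicate 1 closest to them. In 2DC_L the ratio was 0.375, 0.530 and 0.191, so that 2DC_L replicate 2 exceeded that 3DF library. LOXL2 held between 9.82% and 19.5% of the sum in every library, LOXL3 at most 5.67% and LOXL4 at most 5.74%.

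**Figure D4:**
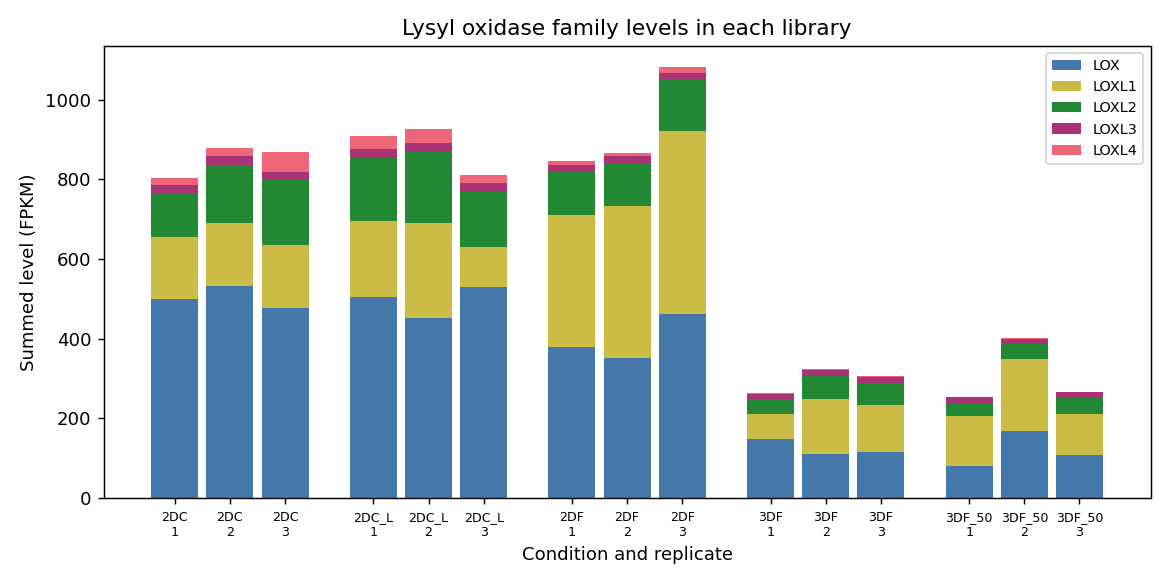
Summed FPKM of LOX, LOXL1, LOXL2, LOXL3 and LOXL4 in each of the 15 libraries, stacked by gene and grouped by condition. The sums are 802.5 to 1081 FPKM in the 2D cultures and 254.7 to 402.7 FPKM in the embedded ones, and LOXL1 takes a larger part of each 2DF bar than of each 2DC bar.

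The number of cells per matrix was examined by comparing 3DF with 3DF_50. By edgeR 0 of the 8 genes were DEGs, where 0.452% of all genes were called. FBN1 and LOXL2 had an unadjusted edgeR p under 0.05 (2 of the 8), as did 2660 of all 13285 genes tested, a like share. DESeq2 also called 0 of the 8. The log2 fold changes of the 8 genes ran from -0.39 for LOXL1 to 0.44 for FBN1, with standard errors of 0.13 to 0.66. With its SE of 0.66, a change of ELN near the fold limit was not detectable. FBLN2, of the microfibril list below, was at 1.79 (SE 0.39, edgeR adjusted p = 0.0772) in this comparison and was not called. For LOXL1 (SE 0.29) and LOX (SE 0.24) the lack of a call thus does not exclude a change near the fold limit.

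The incubation with digestion medium was examined by comparing 2DC with 2DC_L. By edgeR 0 of the 8 genes were DEGs, where 0.265% of all genes were called, with 0 at an unadjusted p under 0.05 and 0 called by DESeq2. Of all 13608 genes tested, 780 had an unadjusted edgeR p under 0.05. The log2 fold changes ran from -0.17 for LOXL2 to 0.068 for ELN, the latter with an SE of 0.85. For ELN a change near the fold limit was thus not detectable, nor was one readily detectable for LOXL4 (SE 0.40) or LOXL1 (SE 0.26). LOXL4 was at -0.06 and reached -0.71 with a library left out. Between 2DC and 2DC_L libraries of name prefix 2 and of prefix 3, 1 against 1, the log2 ratio of FPKM was -1.13 and -0.74 for LOXL4. It was -0.50 and -0.31 for LOXL2 and -0.28 and -0.59 for LOXL1. ELN, LOX and LOXL3 differed in sign between these pairs.

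Among the other pairs, 3DF_50 had 5 lower DEGs against 2DC (FBN1, FBLN5, LOX, LOXL2 and LOXL4), where 11.6% of all genes were called and 7.33% called lower. FBN1, FBLN5, LOX, LOXL2 and LOXL4 were also the 5 lower DEGs against 2DC_L (13.5% called, 8.47% lower). Against 2DF, 3DF_50 had 6 lower DEGs (ELN, FBLN5, LOX, LOXL1, LOXL2 and LOXL4), where 4.45% were called and 3.01% called lower. For LOX the log2 fold changes of 3DF_50 were -2.07 (SE 0.23) against 2DC, -2.05 (SE 0.23) against 2DC_L and -1.72 (SE 0.24) against 2DF. 3DF against 2DC_L gave LOX, LOXL2 and LOXL4 as lower DEGs (10.2% called, 5.98% lower), and 2DF against 2DC_L gave ELN (4.44, SE 0.52) and LOXL1 as higher and LOXL4 as lower ones (7.39% called, 2.93% higher and 4.46% lower).

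Library names carry a number in their prefix, and some conditions share it. Prefix 6 was shared by 3DF replicate 1 and 2DC replicate 3, between which the log2 ratio of FPKM was -1.68 for LOX, -2.13 for LOXL2, -4.41 for LOXL4, -1.34 for LOXL1, -1.09 for FBN1, -0.94 for FBLN5, -0.67 for LOXL3 and 0.14 for ELN. The 2DF libraries shared a prefix only once, number 5, with 3DF_50 replicate 2, where 3DF_50 differed from 2DF by -3.31 for ELN, -2.04 for LOXL4, -1.44 for LOXL2, -1.34 for FBLN5, -1.17 for LOX and -0.87 for LOXL1. Within these pairs, each of 1 library against 1, the drop of LOX, LOXL2, LOXL4 and FBLN5 had the direction seen over all libraries. So it had in the other pairs of an embedded and a coated culture with a shared prefix, where FBLN5 came to -0.29 at the least. In those pairs LOXL1 ran from -0.94 (3DF_50 replicate 1 against 2DC_L replicate 2, prefix 3) to 0.45 (3DF replicate 2 against 2DC_L replicate 3, prefix 7). ELN ran from 0.94 to 4.10 in the same pairs.

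In a model of all 5 conditions with the prefix as a block, LOX, LOXL2 and LOXL4 stayed lower DEGs in 3DF against 2DC, at -2.02, -1.66 and -3.62, and FBN1 joined them at -1.09 (edgeR adjusted p = 0.00118). In that model no member was a DEG in 2DF against 2DC, 3DF against 2DF or 2DF against 2DC_L. It called 16, 4 and 87 of the 14036 genes tested in these comparisons, 236 in 3DF_50 against 2DF and 1159 in 3DF against 2DC. In the same order the main fits called 658, 499, 972, 587 and 1020 genes. With so few genes called, the absence of members there says little about these genes. The rise of ELN in 2DF was 4.55 (edgeR adjusted p = 0.143), that of LOXL1 was 0.31 (edgeR adjusted p = 0.933), and LOXL4 was at -1.59 (edgeR adjusted p = 0.430). Against 2DC_L the 2DF values were 4.77 (edgeR adjusted p = 0.0530) for ELN, 0.31 (edgeR adjusted p = 0.897) for LOXL1 and -2.15 (edgeR adjusted p = 0.170) for LOXL4. For 3DF against 2DF the block model gave -2.18 for ELN, -0.87 for FBLN5, -0.83 for LOX, -0.78 for LOXL1, -1.04 for LOXL2 and -2.04 for LOXL4, with edgeR adjusted p between 0.388 and 0.756. For 3DF_50 against 2DF the same model gave -3.32 for ELN, -1.36 for FBLN5 and -1.19 for LOX. It gave -0.89 for LOXL1, -1.46 for LOXL2 and -2.06 for LOXL4. These values nearly repeat the log2 ratios of the single prefix-5 pair above. 2DF replicates 2 and 3 had prefixes of their own (9 and 10), so for them prefix and condition cannot be told apart. Every 2DF value of the block model thus rests on 2DF replicate 1 alone, linked to the rest through 3DF_50 replicate 2. Such values are not a second measure of the 2DF differences.

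Further microfibril genes were followed by a list of 20, of which 15 were in the table (MFAP2, EFEMP2, LTBP3, LTBP4 and ADAMTSL2 were not analysed here) and 14 were tested in the comparisons of 2DC, 2DF and 3DF. In 3DF against 2DC 3 of the 14 were DEGs, all lower, beside 4.32% of all genes called lower. FBN2, a fibrillin typical of developing tissue, was at 1.26, 0.990 and 1.47 FPKM in 2DC and 0.179, 0.215 and 0.218 FPKM in 3DF. Its log2 fold change was -2.61 (adjusted p = 0.000213 in edgeR, SE 0.21). EMILIN2, a glycoprotein of the elastin and microfibril interface family, changed by -1.83 on the log2 scale (adjusted p = 0.000802 in edgeR, SE 0.20), and ADAMTS17, a protease linked to fibrillin, by -1.48 (adjusted p = 0.00958 in edgeR, SE 0.28). In limma on log2(FPKM + 1) FBN2 came to -0.89, and in the prefix-block model ADAMTS17 came to -0.99, both short of the fold limit.

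In 2DF against 2DC 1 of the 14 was a DEG, a share near the 4.96% of all genes called. It was EMILIN2, at -2.05 (adjusted p = 0.0016 in edgeR, SE 0.26). In 3DF against 2DF, where 1.69% of all genes were called lower, FBN2 and ADAMTS17 were DEGs, at -2.23 (adjusted p = 0.0050 in edgeR, SE 0.35) and -1.03 (adjusted p = 0.0068 in edgeR, SE 0.17). ADAMTS17 came to -0.87 without 2DF replicate 3, and the prefix-block model kept none of these 3 calls. No microfibril gene of the list was a higher DEG in these comparisons. The median log2 fold change of the 14 was -0.45 in 3DF against 2DC, -0.28 in 2DF against 2DC and -0.24 in 3DF against 2DF, where all genes tested had 0.012, 0.0045 and 0.011.

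A second list held 6 genes that act on lysyl oxidases or with them, all tested. In 3DF against 2DC 1 of the 6 was called higher and 1 lower (7.56% of all genes called), in 2DF against 2DC 1 lower (4.96% called) and in 3DF against 2DF 1 higher (3.78% called). TLL1, a protease of the BMP1 family, which cleaves the propeptide from the LOX precursor, was at 0.789, 0.981 and 0.459 FPKM in 2DC, 1.11, 0.719 and 0.693 FPKM in 2DF and 5.23, 6.68 and 7.59 FPKM in 3DF. The 3DF libraries lay above all 2D ones. TLL1 rose by 3.11 on the log2 scale (adjusted p = 0.000302 in edgeR, SE 0.28) in 3DF against 2DC and by 2.95 (adjusted p = 0.000482 in edgeR, SE 0.24) in 3DF against 2DF, where the prefix-block model gave 2.58 (edgeR adjusted p = 0.227). TLL1 was thus a higher DEG in the cultures where LOX was a lower one. BMP1 itself was far more highly expressed, at 103 ± 12.7 FPKM in 2DC and 63.4 ± 8.74 FPKM in 3DF (n = 3). In 3DF against 2DC BMP1 changed by -0.71 (adjusted p = 0.0133 in edgeR, SE 0.15), within the fold limit.

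POSTN, encoding periostin, a matrix protein that binds BMP1, fell by 2.40 on the log2 scale (adjusted p = 0.0062 in edgeR, SE 0.41) in 3DF against 2DC. In 2DF against 2DC POSTN was at -1.43 (adjusted p = 0.0332 in edgeR, SE 0.37), a call that ended without 2DC replicate 1 (-1.05), without 2DC replicate 2, without 2DF replicate 1 and without 2DF replicate 2. BMP1, TLL2, the copper transporter ATP7A and the procollagen C-proteinase enhancer PCOLCE were DEGs in none of the 3 comparisons of 2DC, 2DF and 3DF.

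**Figure D5:**
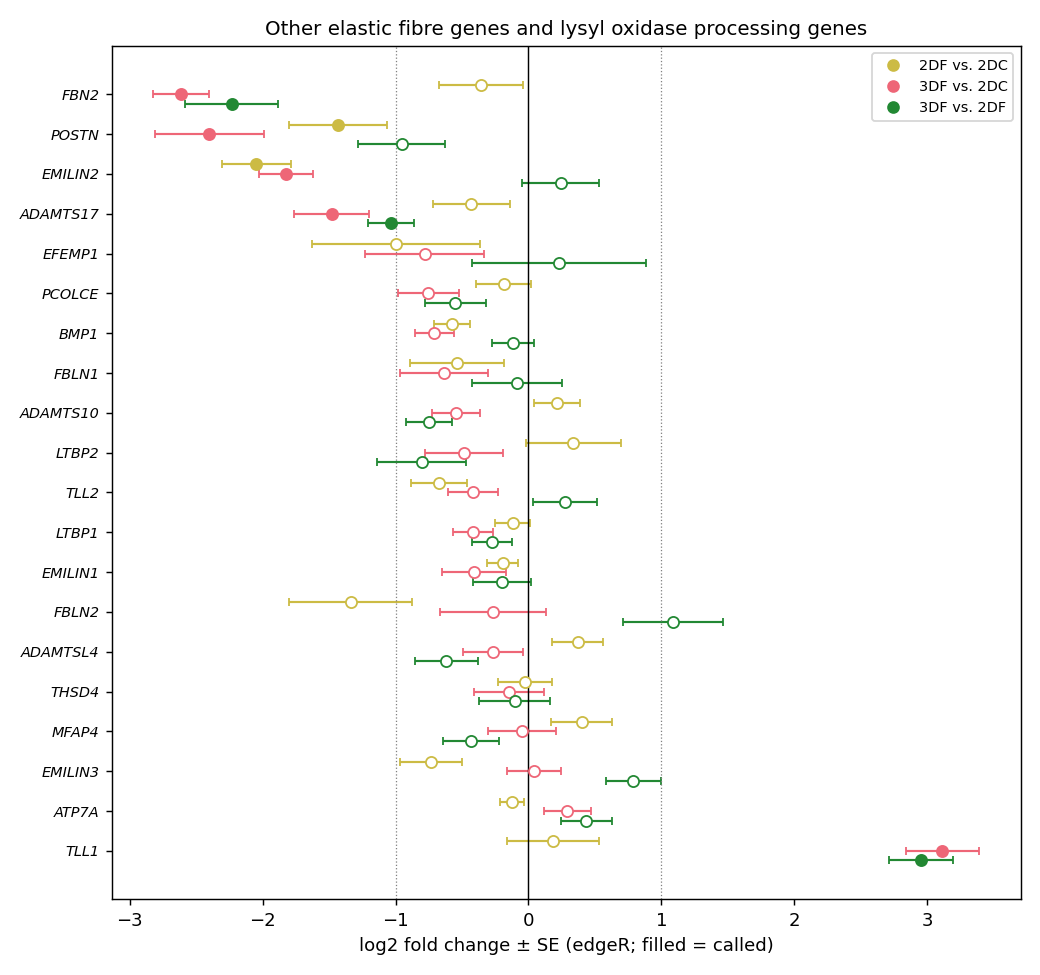
Log2 fold change, with the standard error of the edgeR fit, of the tested microfibril and processing genes in the 3 comparisons of 2DC, 2DF and 3DF, 3 libraries per condition. TLL1 lies highest (3.11 in 3DF against 2DC) and FBN2 lowest (-2.61 in 3DF against 2DC).

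The 8 genes fell into unlike patterns across the 15 libraries. ELN and LOXL1 had a Pearson r of 0.834 on log2(FPKM + 1), while ELN and LOX had 0.178 and ELN and FBN1 -0.019. LOXL2 had 0.936 with LOX, 0.962 with FBN1 and 0.952 with LOXL4. LOX and LOXL1, the most abundant enzymes, had 0.490. Genes of 1 library share its depth and culture, and the libraries of a condition share that condition.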

How the data were processed

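By the study's methods, the authors aligned reads to the rabbit oryCun2 build with HISAT2 2.0.5 and counted them per gene with featureCounts 1.5.0-p3. The deposited table holds whole-number read counts for 15 libraries and, beside them, deposited FPKM values. The library size inside the FPKM was 0.921 to 1.24 times the total count, so FPKM carry a scaling by the authors beyond depth. There were 0 sample columns left unused.

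Groups came from the sample labels. Counts were tested for each pair of conditions with edgeR 4.0.16 (quasi-likelihood, TMM, filterByExpr with a minimum count of 10, two-sided), and the scripts were tested on simulated data. DESeq2 1.42.0 and limma 3.58.1 (log2(FPKM + 1) and log2(FPKM + 0.1), mean of at least 0.1 FPKM) were alternatives, with other scalings, filters, blocks and each library left out. Replicates came from separate experiments by the study's methods. The 8 genes, the pathway lists and the cell type markers were chosen with earlier results of these data known. Named genes were the 8 members, the DEGs of the pathway lists (elastic fibre and microfibril genes, and genes that process or supply lysyl oxidases) and, for each member that was a DEG among 2DC, 2DF and 3DF, the 3 genes most like it. Replicate numbers were not taken as a pairing in the main fits, which had no block. Only for 3DF_50 and 2DC_L did same-numbered libraries correlate best in 6 of 6 cases (correlations of deviations 0.179, 0.124 and 0.324). Of these same-numbered libraries, only those of replicate 3 share a library-name prefix, number 7. The summed gene models were added after seeing the data. The marker lists covered keratocytes, epithelium, smooth muscle, vascular endothelium, corneal endothelium and leukocytes. The corneal endothelial marker SLC4A11 was at 0.400 to 1.28 FPKM throughout. Leukocyte markers summed to 1.93 to 2.60 FPKM in 3DF and 2.17 to 4.54 FPKM in 2DC.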

Additional observations from a re-analysis of the deposited data

How the results depend on the processing

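Without a limit on the fold change 6 of the 8 genes passed in place of 3 in each of 3DF against 2DC, 3DF against 2DC_L and 2DF against 2DC_L. Of all genes tested, 2073 of 13493, 3161 of 13551 and 2974 of 13152 passed there without that limit. With the library prefix as a block the DEGs went from 3 to 0 in 2DF against 2DC, from 6 to 0 in 3DF against 2DF, from 3 to 0 in 2DF against 2DC_L, from 6 to 2 in 3DF_50 against 2DF and from 3 to 5 in 3DF against 2DC_L. Over all genes that model called 16, 4, 87, 236 and 1320 in these comparisons, where the main fits called 658, 499, 972, 587 and 1386. The other DEG counts over the 8 genes stayed within 1.5 times. In the block model every comparison with 2DF rests on 2DF replicate 1 alone, as given above. Leaving out each library in turn gave 3 to 4, 2 to 3 and 6 to 6 DEGs in 3DF against 2DC, 2DF against 2DC and 3DF against 2DF, and 0 in the density and lysis comparisons. The sign turned under some alternative for 15 of 80 values of a gene in a comparison, 10 of them in the density and lysis comparisons. The others were LOXL3 with the prefix block in 2DF against 2DC (0.022) and 2DF against 2DC_L (0.040), LOXL1 in 3DF_50 against 2DC scaled by total count (0.15), and ELN with a library left out in 3DF against 2DC (range -0.86 to 1.93) and 3DF against 2DC_L (-0.79 to 1.08). With the replicate number as a block the counts were 3, 3, 6, 0 and 0, as without it, and POSTN in 2DF against 2DC had -1.35 (edgeR adjusted p = 0.0654). Same-numbered libraries correlated best with each other in 3 of 6 cases in 3DF against 2DC and in 2 of 6 in 3DF against 2DF, so the numbers are not a pairing there. Scaling by total count alone moved the median of all genes by 0.19 in 3DF against 2DC, 0.11 in 2DF against 2DC and 0.37 in 3DF_50 against 2DC on the log2 scale. It turned the sign of no member that was a DEG, but ended the FBLN5 calls in 3DF_50 against 2DC (-0.77) and against 2DC_L (-0.73). Depth limits ELN most, with 4 to 48 reads in 2DC. The cause of these shifts was not tested.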

Other observations

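Genes with profiles most like those of the members were sought by the Pearson r of log2(FPKM + 1) over the 15 libraries, among 9689 genes with a symbol and a mean of at least 1 FPKM. For ELN the closest was the transcription factor gene ERG (r = 0.948), whose level was 149 ± 6.03 FPKM in 2DF against 70.6 ± 6.67 FPKM for 2DC and 73.96 ± 11.6 FPKM for 3DF (n = 3), followed by C1QTNF5 (r = 0.921), at 76.3 ± 8.25 FPKM in 2DF and 10.9 ± 0.385 in 2DC. For FBLN5 they were ENG, the TGF-beta co-receptor endoglin (r = 0.978), TRAM2 (r = 0.968) and BGN, the proteoglycan biglycan (r = 0.965). BGN stood at 456 ± 68.7 FPKM in 2DF and 127 ± 20.1 in 3DF.

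For LOX the closest were FAT1 (r = 0.980), KLHL30 (r = 0.971) and TMEM178A (r = 0.969). For LOXL1 they were ADA (r = 0.941), ACTN4 (r = 0.928) and PLEKHG5 (r = 0.904). LOXL2 was followed most closely by IGF1R (r = 0.983), FN1, encoding fibronectin (r = 0.980), and GALNT2 (r = 0.977). For LOXL4 they were TIMP3, a metalloproteinase inhibitor (r = 0.983), PTX3 (r = 0.977) and SREBF2 (r = 0.976). PTX3 stood at 71.3 ± 74.3 FPKM in 2DC, and at 0.602 ± 0.0817 FPKM in 3DF. These are the highest of many correlations across libraries that share conditions, and no test was made on them.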
